A study of Mus musculus with 6 samples.

Results

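miR-221 and miR-222 are a pair of X-linked microRNAs (miRNAs), and they were followed here in small RNA libraries from cells that had received microglial vesicles. Members were taken by name from the deposited table, with both arms of each hairpin and all end variants included. The rule found 4 features of 756, a feature being all reads of 1 name and 1 sequence: miR-221-3p, miR-221-5p, miR-222-3p and miR-222-5p. Each arm was listed with a single sequence, and none of these sequences stood under another name.

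The libraries were labelled Mes23.5, a hybrid dopaminergic line of mouse neuroblastoma and rat midbrain origin, while the growth protocol in the labels named BV2, a mouse microglial line. In the SIX2_EV group (n = 3), cells had received extracellular vesicles from microglia that overexpress the transcription factor SIX2. In the control_EV group (n = 3), the vesicles came from control microglia. Both groups were labelled as exposed for 24 h to LPS, the endotoxin of gram-negative bacteria. The labels do not say that libraries of a group came from separate cultures, so the p-values here cover only how these libraries vary, and that variation could be technical.

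Mature miRNAs guide silencing proteins to messenger RNAs, chiefly through the seed, bases 2 to 8 from the 5′ end. A hairpin is cut into a 5p and a 3p strand, of which one is usually kept and the other mostly degraded. miR-221 and miR-222 are made from neighbouring hairpins, share their 3p seed and are best known for repressing Cdkn1b and Cdkn1c, inhibitors of the cell cycle, and the receptor gene Kit. In neuron-like cells they are induced by nerve growth factor, and in many tumours they are raised.

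The deposited sequences are shown because the shared seed defines the pair. They are written 5′ to 3′ with T for U and with the seed in capitals.
miR-221-3p: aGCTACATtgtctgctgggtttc
miR-222-3p: aGCTACATctggctactgggtctc
miR-221-5p: aCCTGGCAtacaatgtagatttctgt
miR-222-5p: cTCAGTAGccagtgtagatcc
The 3p strands were identical over their first 8 bases and, aligned from the 5′ end without gaps, at 11 of 23 positions. The 5p strands matched at 2 of 21 positions and had different seeds. Among the features of other names, 0 carried any of these seeds at bases 2 to 8, so the 3p seed was read in these libraries from miR-221-3p and miR-222-3p.

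All 4 rows carried rat names (rno) with a mouse position. The deposited hairpins lay on the minus strand of chromosome X at 19012524 to 19012632 for miR-221 and at 19013119 to 19013226 for miR-222, in a build that is not named, with 486 bases between them. In the RefSeq table, on GRCm38.p6, Mir221 spans chrX:19146294-19146388 and Mir222 spans chrX:19146893-19146971, both on the minus strand, and GENCODE M21 lists no other gene over either hairpin. Coordinates of the named and the unnamed build were not mixed. The RefSeq hairpins are printed to show where the strands sit, with the stretches listed in the libraries in capitals.
Mir221: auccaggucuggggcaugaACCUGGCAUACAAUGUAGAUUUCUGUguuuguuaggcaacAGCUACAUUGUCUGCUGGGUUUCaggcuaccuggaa
Mir222: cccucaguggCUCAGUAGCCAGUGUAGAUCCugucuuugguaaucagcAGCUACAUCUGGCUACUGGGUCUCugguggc
Between the strands lie 14 bases in Mir221 and 17 bases in Mir222. miR-221-3p and miR-221-5p, of 23 and 26 bases, were identical to the RefSeq mouse miRNAs. miR-222-3p, of 24 bases, ran 1 base past the 3′ end of the RefSeq mouse miRNA and 3 bases past the rat one. RefSeq entries were matched for 3 of the 4 mature strands and for both hairpins. Since the rat reference of miR-221-3p had the same 23 bases as the mouse one, reads of either species could not be told apart.

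Deposited reads per library ranged from 179621 to 232635 in SIX2_EV and from 253037 to 421279 in control_EV. Mature miRNA names whose hairpin was placed in the mouse genome (the deposited groups gp1a and gp1b) took 6.79% to 32.7% of reads in SIX2_EV and 31.5% to 70.9% in control_EV. Library 3 differed from the rest in both groups, with 7.94% of reads in SIX2_EV and 7.48% in control_EV under mir-1285 names, against at most 0.447% in the other 4 libraries. Of the 7 neuronal marker miRNAs examined, 5 were matched and 3 tested, and 0 passed by edgeR, beside 0% of all 319 tested features. miR-124-3p and miR-137-3p were the markers not matched, so the sums below hold no reads of either. miR-9-5p and miR-218-5p were named here after their values were seen. miR-9-5p had 7 reads in the first control_EV library and miR-218-5p had 21 in the third, with 0 in all other libraries. Counts this low, beside a listing limit of about 5 reads a library, do not show a difference between the groups. The matched neuronal markers summed to between 2053 and 3038 CPM (counts per 1000000 reads, after TMM scaling of the libraries) in SIX2_EV, against 2301 to 3168 CPM in control_EV. Most of that sum was miR-7a-5p, at 2176 ± 372 CPM in SIX2_EV, against 2228 ± 606 CPM in control_EV (SD, n = 3 each). miR-128-3p, with the smallest p, was at 101 ± 24.9 CPM in SIX2_EV, against 240 ± 50.2 CPM in control_EV (SD, n = 3 each). The log2 fold changes were negative for 3 of 3 tested markers, and for 2 of 3 with DESeq2 size factors or in a fit on mature names alone.

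The 6 myeloid and blood cell markers, all matched and tested, summed to between 30881 and 32591 CPM in SIX2_EV, against 24803 to 45427 CPM in control_EV. Most of that sum was miR-146a-5p, at 27804 ± 2041 CPM in SIX2_EV, against 30544 ± 10738 CPM in control_EV (SD, n = 3 each). miR-142-5p, with the smallest p, was at 3025 ± 643 CPM in SIX2_EV, against 3929 ± 135 CPM in control_EV (SD, n = 3 each). miR-223-3p, named after its values were seen, had 0, 0 and 61 reads in SIX2_EV and 33, 38 and 461 reads in control_EV. The log2 fold changes were negative for 6 of 6, with a median of -0.51 beside -0.28 for all features. They were negative for 5 of 6 in the fit on mature names alone. By edgeR 0 passed, beside 0% of all 319 tested features. The part of either marker list in the levels of the pair was not tested.

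The main question was whether the pair differed between cells given the one or the other kind of vesicle. It did not pass the test. After TMM scaling, miR-221-3p and miR-222-3p were at close to the same mean level in both groups. miR-221-5p was sparse and variable, and miR-222-5p was near the limit of listing. miR-221-3p was the more abundant guide strand. It had 332, 157 and 485 reads in the SIX2_EV libraries and 603, 1036 and 2671 reads in the control_EV libraries. Scaled, the SIX2_EV libraries stood at 3156, 2197 and 2205 CPM, against 2205, 2479 and 2387 CPM in the control_EV libraries. The first SIX2_EV library was the highest of the 6, the other two lay at the control_EV level or just under it, and the groups overlapped.

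In SIX2_EV miR-221-3p averaged 2520 ± 551 CPM, against 2357 ± 139 CPM in control_EV (SD, n = 3 each). Its log2 fold change, SIX2_EV over control_EV, was 0.10 (SE 0.24, 95% interval -0.48 to 0.67), and edgeR's quasi-likelihood test gave it an adjusted p of 0.912 (Benjamini-Hochberg over 319 tested features). The whole 6-library range of its CPM was 1.44-fold. Without the first SIX2_EV library the log2 fold change was -0.13.

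miR-222-3p, the guide strand of the neighbouring hairpin, had 69, 44 and 285 reads in SIX2_EV and 214, 323 and 957 reads in control_EV. These were worth 656, 616 and 1296 CPM in the SIX2_EV libraries, against 783, 773 and 855 CPM in the control_EV libraries. Here the third SIX2_EV library was the highest and the other SIX2_EV libraries were the lowest, on either side of a narrow control_EV group. The SIX2_EV mean was 856 ± 382 CPM, against 803 ± 45.0 CPM for control_EV (SD, n = 3 each). The log2 fold change was 0.10 (SE 0.36, 95% interval -0.77 to 0.96; adjusted p 0.950 by edgeR), and -0.22 without the third SIX2_EV library. The intervals of both guide strands reach about as far below 0 as above, so with 3 libraries a group a change in either direction within these bounds stays possible. Each interval is for a single strand, without adjustment over the tested features, so its bounds are not the size of change that would have been called. miR-92a-3p, with an SE of 0.35, was not called at a log2 fold change of -0.87 (adjusted p 0.390 by edgeR).

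The passenger strand miR-221-5p was listed at 0, 6 and 44 reads in SIX2_EV and at 15, 40 and 121 reads in control_EV. In CPM these were 0, 84.0 and 200.1 in SIX2_EV and 54.9, 95.7 and 108 in control_EV, so the SIX2_EV libraries held both the lowest and the highest value. Its log2 fold change of 0.15 had an SE of 1.34 and an adjusted p of 0.976 by edgeR, and it was -1.01 without the third SIX2_EV library and -0.11 without the first control_EV library. miR-222-5p had 0, 0 and 8 reads in SIX2_EV and 0, 6 and 16 reads in control_EV. It was the 1 member that did not pass the filter on low counts, and it was not tested. The table lists few sequences below about 5 reads in a library, which were worth 69.97 CPM in the second SIX2_EV library and 4.47 CPM in the third control_EV library, so a 0 says only that the sequence was listed at 0.

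**Figure D1:**
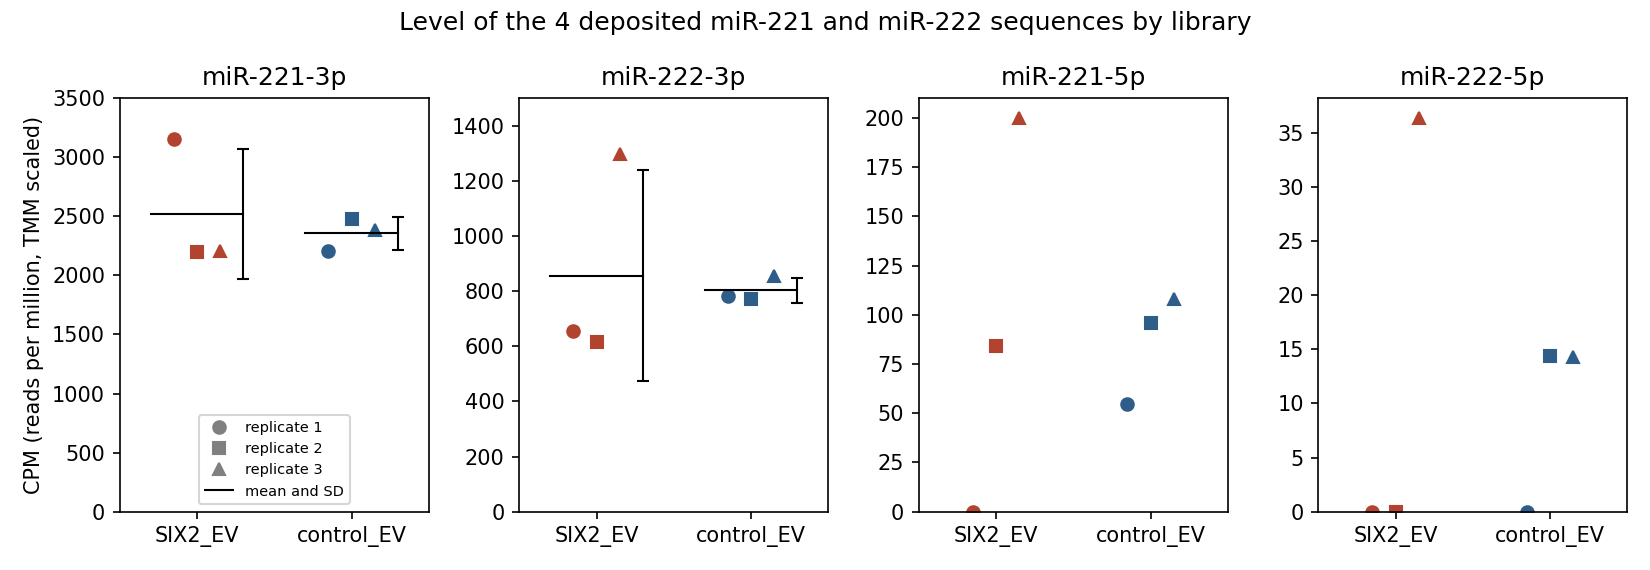
CPM (TMM scaled, linear axes from 0) of the 4 members in each library, SIX2_EV left and control_EV right; symbols mark the replicate, and for the 3p strands the line and bar give mean and SD (n = 3). The control_EV libraries lie close together for the 3p strands, while SIX2_EV libraries span 2197 to 3156 CPM for miR-221-3p and 616 to 1296 CPM for miR-222-3p.

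Of the 3 tested members 0 passed an adjusted p of 0.05 by edgeR, and 0 also had an unadjusted p under 0.05, with unadjusted values of 0.697 for miR-221-3p, 0.797 for miR-222-3p and 0.912 for miR-221-5p. Over all 319 features 0 were called (0%), with 38 (11.9%) at an unadjusted p under 0.05. Having 0 calls does not show that no feature changed. DESeq2 called 20 of 319 features (6.27%) and limma-voom 0, and in each 0 members were called. The groups overlapped for all 3 tested members, and they did not overlap for 73 of the 319 features (22.9%). The SE of miR-221-3p was among the small ones, with a smaller SE in 13 of the 319 features, against 55 for miR-222-3p.

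The direction of these values rests on how libraries are scaled. The TMM factors were 0.586, 0.307 and 1.19 in SIX2_EV and 1.06, 1.65 and 2.66 in control_EV. Of all deposited reads, unscaled, the pair took 0.223%, 0.089% and 0.446% in SIX2_EV. In control_EV it took 0.323%, 0.555% and 0.894% (exact two-sided permutation p 0.2). By TMM the tested features had a median log2 fold change of -0.28, and 217 features lay below miR-221-3p and 216 below miR-222-3p. With total counts the log2 fold changes were -1.31 for miR-221-3p, -1.05 for miR-222-3p and -0.93 for miR-221-5p, beside a median of -1.52 for all features. With DESeq2 size factors they were 0.22, 0.20 and 0.25 in the same order, beside a median of -0.16. In a fit on mature miRNA names with a mouse position alone, which changed the features as well as the scaling, they were 0.37, 0.32 and 0.36, beside a median of -0.14 for the 214 features tested there. In each of these fits the 3 members stood above the median of the features tested, and 0 of them passed the test in any. A change of scaling moves all features together, so these fits are not separate support. In other fits miR-221-5p lay below the median, at -1.19 beside -0.36 by limma-voom and -0.71 beside -0.40 with a replicate block. It was also below without the third SIX2_EV library (-1.01 beside -0.47) and with replicates 1 and 2 only (-0.81 beside -0.21).

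**Figure D2:**
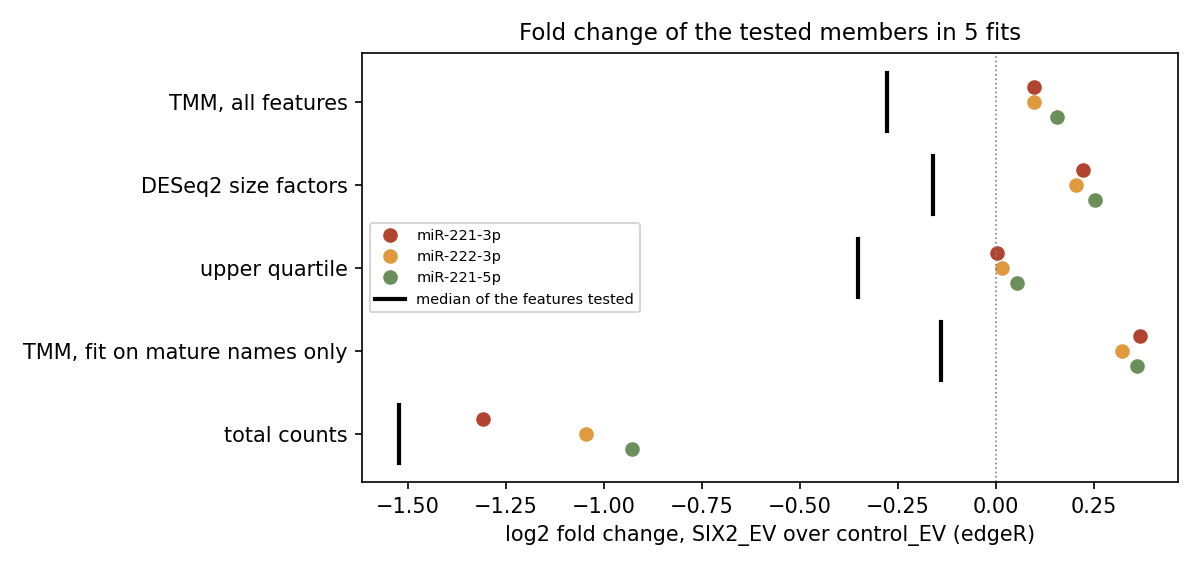
Log2 fold change (SIX2_EV over control_EV, edgeR) of the 3 tested members in 5 fits, of which that on mature names alone tested 214 features and the others 319, with black lines for the median of the features tested in each. The points lie right of that median in all 5 and left of 0 only with total counts, at -1.31 for miR-221-3p.

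The authors' normalized signal, the reads times 1 factor per library, gave the same picture as TMM. For miR-221-3p it was 765, 534 and 518 in SIX2_EV and 511, 587 and 606 in control_EV. For miR-222-3p it was 159.0, 149.5 and 305 in SIX2_EV and 181, 183 and 217 in control_EV.

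A second question was how much of the mature miRNA reads the pair took, a share that needs no scaling between libraries. Of reads under mature names with a mouse position, the pair took 0.881%, 0.337% and 1.19% in SIX2_EV and 0.875%, 0.933% and 1.23% in control_EV. The 95% Wilson interval was widest in relation to its value in the second SIX2_EV library, at 0.294% to 0.386%. The means were 0.802% ± 0.430 in SIX2_EV and 1.01% ± 0.191 in control_EV (SD, n = 3 each), and the exact two-sided permutation test gave a p of 0.5. The second SIX2_EV library was the low one, and without it the difference, SIX2_EV minus control_EV, was 0.021 percentage points in place of -0.211.

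These mature names include 51 features whose named hairpin was not the one at their mouse position, among them several cattle-named miR-11987 sequences. In a denominator chosen after the data were seen, the 388 mature features whose named hairpin was placed in the mouse genome, the pair took 1.61%, 1.31% and 1.37% of reads in SIX2_EV and 1.03%, 0.979% and 1.26% in control_EV. All 3 SIX2_EV libraries then lay above all 3 control_EV libraries, with means of 1.43% ± 0.158 in SIX2_EV and 1.09% ± 0.151 in control_EV (SD, n = 3 each). The exact two-sided permutation p was 0.1, the smallest that 3 against 3 libraries allow. The Wilson interval of the second SIX2_EV library, 1.14% to 1.50%, includes the 1.26% of the third control_EV library. Taken singly, neither 3p strand separated the groups: miR-221-3p took 1.33%, 0.994% and 0.806% in SIX2_EV and 0.743%, 0.722% and 0.895% in control_EV. miR-222-3p took 0.277%, 0.279% and 0.474% in SIX2_EV and 0.264%, 0.225% and 0.321% in control_EV. Of 211 tested features in this denominator, 13 (6.16%) lay higher in all SIX2_EV libraries than in any control_EV library.

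**Figure D3:**
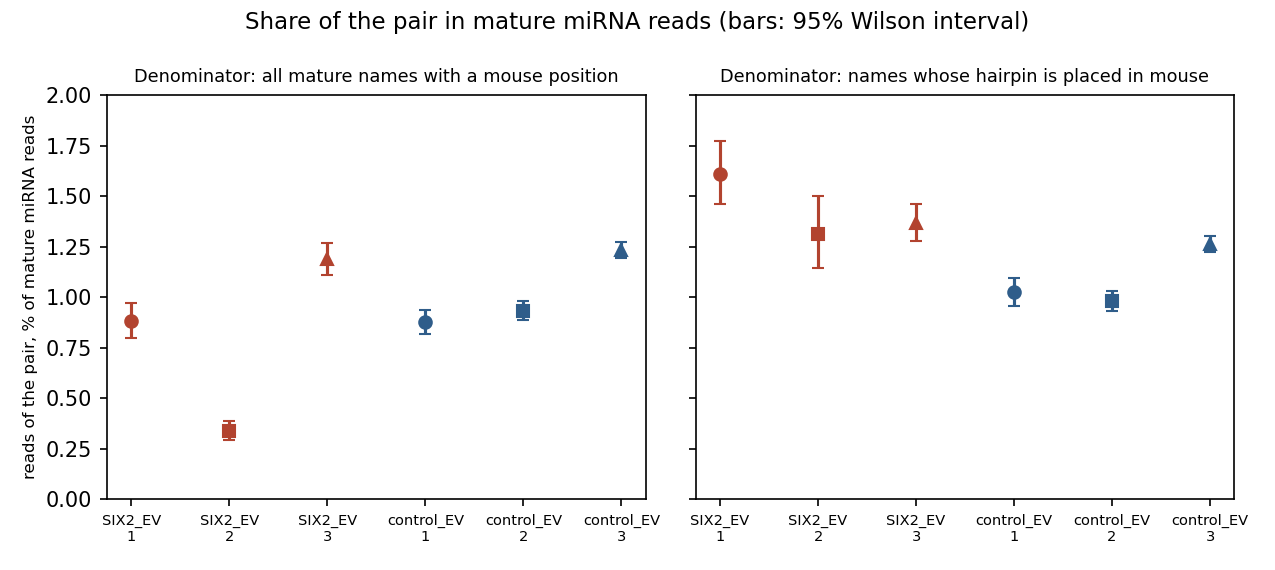
Reads of the pair as a percent of mature miRNA reads in each library, with all mature names that have a mouse position (left) or only names whose hairpin was placed in mouse (right) as denominator; bars are 95% Wilson intervals, which cover counting error only. The second SIX2_EV library stands at 0.337% on the left and at 1.31% on the right.

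By rank, miR-221-3p stood at 10, 24 and 25 in SIX2_EV and at 31, 29 and 26 in control_EV among these 388 features, with rank 1 the most abundant. miR-222-3p stood at 66, 65 and 44 in SIX2_EV and at 61, 67 and 67 in control_EV. By mean CPM over the 6 libraries the order within the pair was miR-221-3p, miR-222-3p, miR-221-5p and miR-222-5p, and in each library miR-221-3p had the most reads and miR-222-3p the next most.

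The third question was the balance within the pair. Both hairpins are thought to come from one primary transcript, so the reads of miR-222-3p per read of miR-221-3p were compared within libraries. The ratio was 0.208, 0.280 and 0.588 in SIX2_EV and 0.355, 0.312 and 0.358 in control_EV. Control_EV libraries held close together, while the first and second SIX2_EV libraries lay below all of them and the third above. As a share of the 3p reads of the pair, miR-222-3p made up 37.0% in the third SIX2_EV library (95% Wilson interval 33.7% to 40.5%), 17.2% in the first (13.8% to 21.2%) and 21.9% in the second (16.7% to 28.1%). The control_EV shares were 26.2% (23.3% to 29.3%), 23.8% (21.6% to 26.1%) and 26.4% (24.97% to 27.8%). The interval of the third SIX2_EV library does not overlap that of any other library.

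The log2 ratio averaged -1.62 ± 0.77 in SIX2_EV and -1.55 ± 0.11 in control_EV (SD, n = 3 each), a difference of -0.07 (exact two-sided permutation p 0.9). Without the third SIX2_EV library the difference was -0.50 and both remaining SIX2_EV libraries lay below all control_EV libraries (exact permutation p 0.1, the smallest that 2 against 3 libraries allow). Without the first SIX2_EV library it was 0.25, and without the second 0.035. Beside this, the third SIX2_EV library had the highest share of mature names placed in mouse among the SIX2_EV libraries (32.7%, against 13.9% and 6.79%) and 7.94% of reads under mir-1285 names, and the part of either in the ratio was not tested.

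The 5p strands made up 0%, 2.90% and 6.33% of the reads of the pair in SIX2_EV and 1.80%, 3.27% and 3.64% in control_EV. The highest share was again that of the third SIX2_EV library, from 52 of 822 reads (95% Wilson interval 4.86% to 8.20%). The third control_EV library had 137 of 3765 reads (3.09% to 4.29%). The means were 3.07% ± 3.17 in SIX2_EV and 2.91% ± 0.972 in control_EV (SD, n = 3 each), a difference of 0.170 percentage points (exact two-sided permutation p 1). Without the third SIX2_EV library the difference was -1.46 and without the first control_EV library -0.382 percentage points. The first SIX2_EV library had 401 reads of the pair in all, so a 5p strand present there below the listing limit of about 5 reads would appear as 0. After Benjamini-Hochberg adjustment over the 3 within-library quantities, the share, the ratio and the 5p share each had a permutation p of 1.

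**Figure D4:**
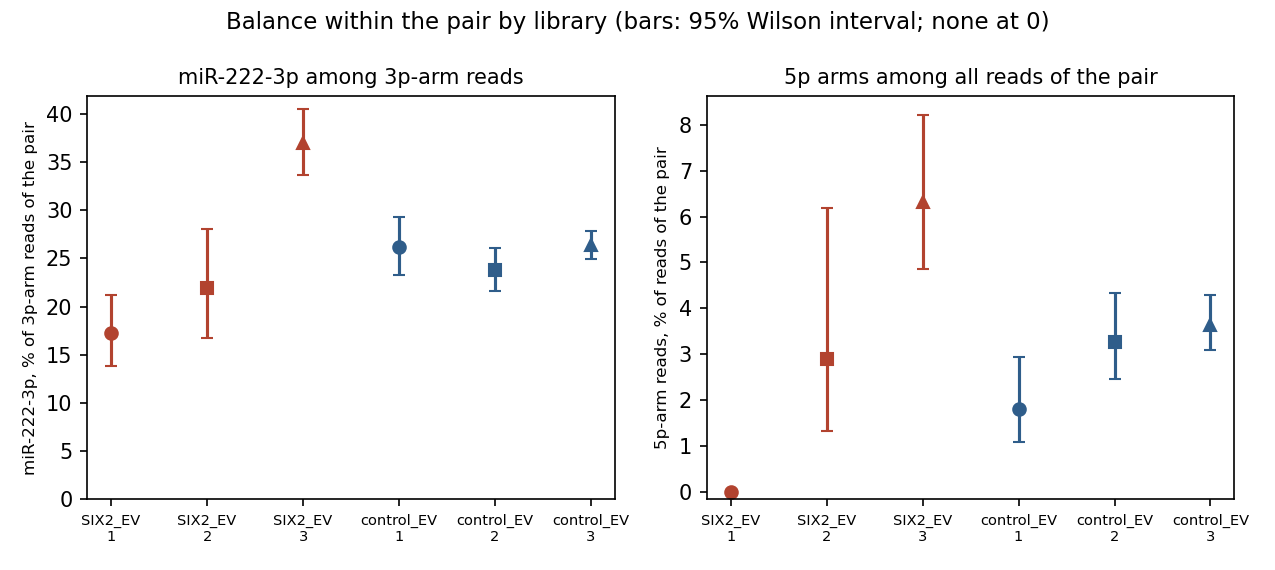
miR-222-3p as a percent of the 3p reads of the pair (left) and 5p strands as a percent of all reads of the pair (right) in each library, with 95% Wilson intervals for counting error, none drawn at 0. The third SIX2_EV library is the highest in both, at 37.0% and 6.33%.

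To show which other miRNAs ran in parallel, each feature was compared with the pair by the SD over the 6 libraries of the log2 ratio of their reads (1 read added to each), a measure that library scaling leaves unchanged. All features share the same libraries and depths, so these values are a description. Of 179 features above 0 in all libraries and at a mean of at least 100 CPM, the closest to miR-221-3p was miR-146b-5p, induced by inflammatory signals, with an SD of 0.15. It had 104, 50 and 182 reads in SIX2_EV and 215, 406 and 806 reads in control_EV. Next came miR-10b-5p (SD 0.16), a miRNA of the Hox clusters, miR-181a-5p (0.16), miR-148a-3p (0.17) and miR-199a-3p (0.19), beside a median of 0.66 over the 179. miR-181a-5p and miR-148a-3p are also among the miRNAs reported to repress Cdkn1b or its relatives.

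The closest to miR-222-3p was another set. It was led by a feature named miR-182 without an arm (SD 0.11), the miRNA of a sensory neuron cluster, with 85, 56 and 309 reads in SIX2_EV and 258, 448 and 1165 reads in control_EV. miR-423-5p (0.17), miR-30c-5p (0.18), miR-21-5p (0.22), an abundant miRNA of growth and inflammation, and miR-23b-3p (0.23) followed, beside a median of 0.68. Between miR-221-3p and miR-222-3p themselves the SD was 0.49. At that value miR-222-3p took rank 59 among the features compared with miR-221-3p, and miR-221-3p rank 51 among those compared with miR-222-3p.

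Other miRNAs reported to act on the same target genes were read as lists, chosen with earlier results of these data known. Of 9 miRNAs listed as repressors of Cdkn1b or Cdkn1c, 7 were matched and 6 tested. By edgeR 0 passed in either direction, beside 0% of all 319 tested features. Their log2 fold changes were negative for 4 of 6, with a median of -0.32 beside -0.28 for all features, and negative for 3 of 6 with a median of -0.047 in the fit on mature names alone. miR-92a-3p, of the miR-17-92 cluster, was both the most abundant and the one with the smallest p, at 4035 ± 1106 CPM in SIX2_EV, against 7361 ± 2438 CPM in control_EV (SD, n = 3 each; log2 fold change -0.87, SE 0.35, adjusted p 0.390 by edgeR). miR-181a-5p, in contrast, had a positive value, 1272 ± 300.2 CPM in SIX2_EV, against 996 ± 110 CPM in control_EV (SD, n = 3 each; log2 fold change 0.35).

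Other miRNAs of the X chromosome were listed because they share that chromosome with the pair. Of 37, 25 were matched and 15 tested, and 0 passed by edgeR, beside 0% of all 319 tested features. The values were negative for 14 of 15, with a median of -1.11 beside -0.28 for all features, and for 9 of 12 with a median of -0.79 in the fit on mature names alone. Most were sparse in SIX2_EV, and several passed the low-count filter mainly through control_EV. An example is miR-322-5p, with 0, 0 and 11 reads in SIX2_EV and 40, 52 and 37 reads in control_EV. For such miRNAs the filter and the listing limit favour a negative sign, so the count of signs is only a description. miR-450a-5p and miR-450b-5p had the same reads in every library, and both count among the 15. The most abundant, miR-652-3p, had 51, 35 and 122 reads in SIX2_EV and 155, 209 and 685 reads in control_EV, and its log2 fold change was -0.13 (SE 0.28). miR-501-3p, with the smallest p, had 12, 5 and 30 reads in SIX2_EV and 85, 142 and 256 reads in control_EV. Its log2 fold change was -1.44 (SE 0.56, adjusted p 0.373 by edgeR), and DESeq2 called it alone of the 15 tested, beside 6.27% of all features.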

How the data were processed

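Trizol RNA was made into libraries with a TruSeq kit for small RNA, and ACGT101-miR took out adapter dimers, junk, common RNA families and repeats, per the labels' protocols. For genome build, miRBase release and mapping, settings were not given in the sources used here. As deposited, the table holds, per the file headers, raw estimated counts per sequence and locus, and the authors' normalized signal, which is the raw value times 1 factor per library.

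Rows of 1 name and sequence were summed and rounded to whole reads. All 4 members had whole values. edgeR 4.0.16 (R 4.3.3) was fitted to all features, with filterByExpr, TMM, no block, the quasi-likelihood test and Benjamini-Hochberg adjustment at 0.05, and 319 of 756 features passed the filter. SE is the log2 fold change divided by the square root of the F statistic. Alternatives used DESeq2 1.42.0, limma 3.58.1, other scalings and filters, and libraries left out. Names were taken as placed in mouse where the authors' group was gp1a or gp1b, since the genomic and the named hairpin were alike there (median similarity 0.956 on a scale to 1, against 0.504 for gp2a and gp2b). Within-library quantities were compared with exact permutation tests. Wilson intervals are at 95% and cover counting error only. List members were matched by name without species prefix and end suffix. Named features were all members, features with a member's seed and the 5 most alike to each 3p strand. Of each list, the most abundant tested one and that with the smallest p were also named. miR-124-3p, miR-137-3p, miR-9-5p, miR-218-5p, miR-223-3p, miR-322-5p, miR-450a-5p, miR-450b-5p and miR-181a-5p (in its list) were named outside this rule. The members and lists were chosen with earlier results of these data known. The result of 1 further list is not reported here. Sequences are from the deposited table and, for mouse references, from RefSeq (GRCm38.p6).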

Additional observations from a re-analysis of the deposited data

How the results depend on the processing

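In every fit run, 0 members passed an adjusted p of 0.05. Over all features 0 were called except by DESeq2, which called 20. Signs of the members' log2 fold changes did not hold. With total counts they were -1.31 for miR-221-3p, -1.05 for miR-222-3p and -0.93 for miR-221-5p, the scaling alone being changed. With no filter miR-221-3p was at -0.015 and miR-222-3p at -0.0072, and with a filter of 10 CPM miR-221-3p was at -0.0091. limma-voom gave -1.19 for miR-221-5p. With replicates 1 and 2 only, an alternative chosen after seeing the data, miR-222-3p was at -0.14 and miR-221-5p at -0.81, with fewer samples. Leaving out 1 library at a time gave -0.13 to 0.31 for miR-221-3p, -0.22 to 0.30 for miR-222-3p and -1.01 to 0.69 for miR-221-5p.

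Left out 1 at a time, the libraries gave differences of -0.50 to 0.25 for the log2 ratio of miR-222-3p to miR-221-3p, -1.46 to 1.71 percentage points for the 5p share and -0.404 to 0.021 for the share of mature reads. For miR-222 alone the 5p share differed by -0.246 points. With mouse hairpin names as denominator, chosen after seeing the data, the mature share differed by 0.340 points. The cause of these reversals was not tested beyond the change of setting itself. The share of reads in the most abundant isoform was not run, since each arm was listed with 1 sequence.

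Same-numbered libraries deviated from their group means with correlations across features of 0.209, 0.066 and 0.672. The second SIX2_EV and the first control_EV library reached 0.622, so the numbers were not taken to pair the samples. The 0.672 is that of the third libraries, which also had the highest shares of reads under mir-1285 names. With the replicate number as a block, miR-221-3p was at 0.076, miR-222-3p at 0.011 and miR-221-5p at -0.71, with 0 members and 0 features called. Depth limits the 5p strands most: their counts rest on 50 and 8 reads in all SIX2_EV libraries.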

Other observations

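The share of passenger strands over other hairpins is given beside that of the pair. Over 87 other hairpins with both arms listed under names placed in mouse, the less abundant arm took 3.98%, 2.95% and 4.13% of their reads in SIX2_EV and 3.54%, 3.52% and 5.42% in control_EV. The 5p share of the pair in the third SIX2_EV library, 6.33%, was above each of these pooled shares, and those of the first and second SIX2_EV libraries, 0% and 2.90%, and of the first control_EV library, 1.80%, were below each. In the number of hairpins with the less abundant arm above 0, SIX2_EV had 19, 14 and 38 and control_EV had 38, 46 and 86. These shares were chosen after seeing the data, were not compared by a test, and move with the listing limit of about 5 reads.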
